A study of Mus musculus with 9 samples.

Results

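The motile cilium and ependymal genes are 34 mouse genes listed by name: the transcription factors Foxj1, Rfx2 and Rfx3, parts of the beating cilium, and products of ependymal cells. They were found by gene symbol, older symbols included. A probe for 33 of them was on the array, and 31 were among the 24889 genes that passed a filter on dim probes and were tested. Meig1 failed that filter, and the only probe of Rsph4a had a spot marked as an outlier on 1 array. Ccdc153 was matched to no probe by its symbols, and only its promoter is analysed here.

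Messenger RNA was measured in cells sorted by fluorescence from mice aged 6 to 8 weeks, on 3 arrays for each of 3 groups. SVZ Sox2-GFP cells came from the subventricular zone (SVZ), the neurogenic zone along the lateral ventricle, and carried green fluorescent protein under the Sox2 promoter. Hippocampus Sox2-GFP cells came from the hippocampus of mice with the same reporter, and hippocampus DCX-DsRed cells from the hippocampus of mice with a red protein under the Dcx promoter. Each experiment pooled 10 dissections, and the RNA of 1000 sorted cells was amplified before labelling. A promoter reporter marks every cell in which the promoter is active or the protein persists, and Sox2 is known to be active in ependymal cells, astrocytes and choroid plexus epithelium as well as in stem cells. Nothing in the labels says whether replicates A, B and C of a group are separate pools of mice. The p-values therefore cover the spread among these arrays alone, and that spread may be technical.

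Ependymal cells line the brain ventricles and carry tufts of motile cilia that move cerebrospinal fluid. The core of such a cilium, the axoneme, is a ring of microtubule doublets around a central pair. Dynein arms on the doublets produce the beat, radial spokes and the central pair regulate it, and tektins and other inner proteins stiffen the doublets. Foxj1 switches on the program, and RFX factors act with it by binding X-box sequences in the promoters of cilium genes. Choroid plexus epithelium, which secretes cerebrospinal fluid, also expresses Foxj1 and some axoneme genes.

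RFX factors recognise the X-box, a palindrome whose letters were searched here as GTTNCC, any 2 bases and GGNAAC. Its left arm alone was searched as GTTGCC, and all searches covered both strands. The arm is part of some X-boxes, so the searches overlap. RefSeq promoter windows of 300 bases (250 before to 50 after the gene start, build GRCm38.p6) were given for 30 of the 34 genes. The arm stood in a window of 18 of these 30 genes, against 14.1% of 27025 genes in the same table. Of the genes called higher in the hippocampal comparison below, 8 of 10 with a window held the arm, and of the other genes 10 of 20. These other genes include Ccdc153, which held the arm, and Meig1, which did not, and neither was tested in that comparison. The 8 include Spag6, counted by its own window, though its called probe may detect the near-identical gene Spag6l, as given below. Some genes have several windows, 39 for these 30 genes, which gives more chances of a match. The lines below show the arm in 6 called genes, in capitals, with 25 bases before it and 14 after it, each read along the gene's own strand. In Pifo the arm stands on the opposite strand and so reads GGCAAC, and the capitals cover the full X-box that contains it. In Tekt1 a second arm stands on the opposite strand.
Dynlrb2 (chr8:116504939-116504983, plus strand): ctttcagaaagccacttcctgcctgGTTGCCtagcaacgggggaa
Enkur (chr2:21205380-21205424, minus strand): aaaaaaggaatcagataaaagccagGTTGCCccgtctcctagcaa
Kif9 (chr9:110476942-110476986, plus strand): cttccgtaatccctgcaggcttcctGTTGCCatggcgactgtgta
Lrriq1 (chr10:103236322-103236366, minus strand): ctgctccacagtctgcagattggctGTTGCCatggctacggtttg
Pifo (chr3:106001490-106001534, minus strand): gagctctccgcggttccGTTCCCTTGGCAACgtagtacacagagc
Tekt1 (chr11:72361878-72361922, minus strand): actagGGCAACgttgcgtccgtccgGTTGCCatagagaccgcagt
The arm lay 51 bases before the annotated start of Dynlrb2, 34 before that of Enkur, 19 before that of Lrriq1, 12 before that of Pifo, and 35 and 15 before that of Tekt1. Kif9 has 2 annotated starts, and its arm lay 27 bases before one and at base 10 after the other. Pifo and Tekt1 each have another annotated start, which the distances above leave aside and whose window holds no arm.

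The full X-box was found in 1 of the 30 genes, Pifo, against 0.529% of all genes. Forms with 1 or 3 bases between the same arms were found in 0 of 30, against 0.311% and 0.0703% of all genes. Any of these 3 forms was found in 1 of 30 genes, against 0.903% of all genes. The core of a forkhead site, the kind of sequence that Foxj1 binds, was searched as TGTTTAC and found in 1 of 30 genes (Ak7), against 4.05% of all genes. The arm stood in 26 of 66 other motile axoneme genes, 10 of 24 genes of dynein arms and their assembly, and 15 of 32 genes of intraflagellar transport. It stood in 5 of 19 choroid plexus genes and 5 of 17 astrocyte genes. These counts describe letters in a window and carry no test.

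**Figure D1:**
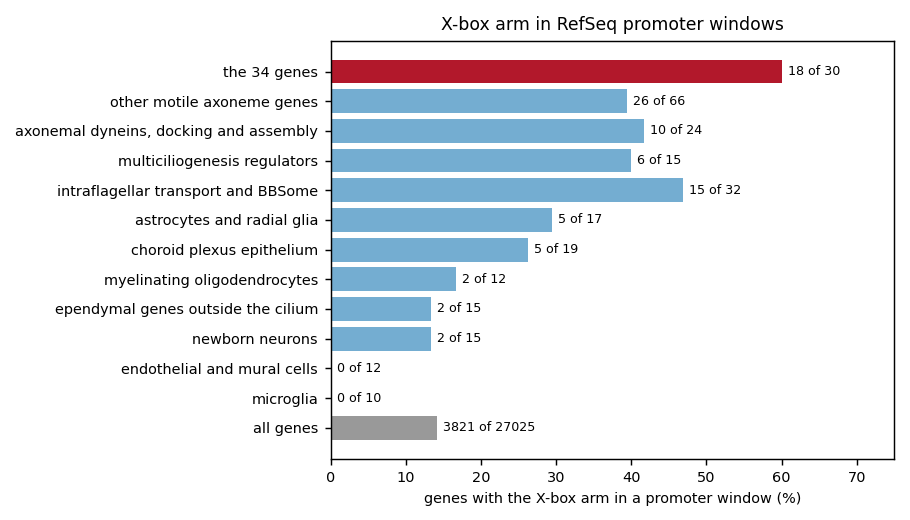
Share of genes (horizontal axis, percent) whose promoter window holds the X-box arm, for the 34 genes, for other gene lists and for all genes, with the number of genes that hold it beside each bar. The bar of the 34 genes stands at 60.0% and that of all genes at 14.1%.

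Each value is a log2 signal minus the 75th percentile of its array, so 0 marks that percentile and 1 log2 unit is a factor of 2. A gene is called below background where its probe was not marked as well above background on any array of a group. Levels are compared for 1 probe across arrays, never between genes. Between 80.4% and 88.2% of probes were well above background on an array. Hippocampus Sox2-GFP replicate C stood apart: across genes it correlated at 0.816 and 0.783 with replicates A and B, which correlated with each other at 0.919. The summed linear level of 20 astrocyte genes was 70.7 on that array, against 185 and 205 on A and B, and that of 23 choroid plexus genes was 395, against 196 and 139. Replicates A and B alone were on slide 2, so within slide 3, or with slide as a block, the hippocampus Sox2-GFP group is carried by replicate C. The mRNA of Sox2 read -0.95 to 0.94 on hippocampus Sox2-GFP arrays, below the 1.30 to 1.71 on DCX-DsRed arrays, though the difference did not pass the test (-1.27, adjusted p = 0.333). Dcx overlapped between these groups (-1.01, adjusted p = 0.779). Newborn neuron genes summed to 10.95 to 14.27 on hippocampus Sox2-GFP arrays, against 41.96 to 49.96 on DCX-DsRed arrays, with 1 of 18 called (Stmn1, 22.0-fold lower in Sox2-GFP cells, adjusted p = 0.04) and Neurod1 and Dlx2 below background in both groups. Of 20 astrocyte and radial glia genes 1 was called, Id4, 20.1-fold higher in Sox2-GFP cells (adjusted p = 0.00725). The median difference of that list was 0.58. Stmn1 and Id4 are named here after their values were seen. Myelin genes summed to 13.1 to 49.7 on hippocampus Sox2-GFP arrays and 363 to 477 on DCX-DsRed arrays.

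In the hippocampus, cilium genes of most structural classes had higher levels in Sox2-GFP cells, set against DCX-DsRed cells. Of the 31 tested genes, 12 rose in Sox2-GFP cells, where 1.76% of all genes did, and 0 fell, where 1.43% of all genes did (limma, adjusted p under 0.05). At an unadjusted p under 0.05, 21 were higher and 0 lower, where 8.35% and 8.57% of all genes were. The 3 Sox2-GFP arrays lay above the 3 DCX-DsRed arrays for 19 genes, where 11.5% of all genes did so, and below them for 2, Dnah9 and Tekt4, where 13.3% did. The median difference was 2.76, against -0.08 over all genes, and 26 of 31 differences were above 0. In bulk samples such as these, fewer cells of a type and less RNA per cell cannot be told apart.

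**Figure D2:**
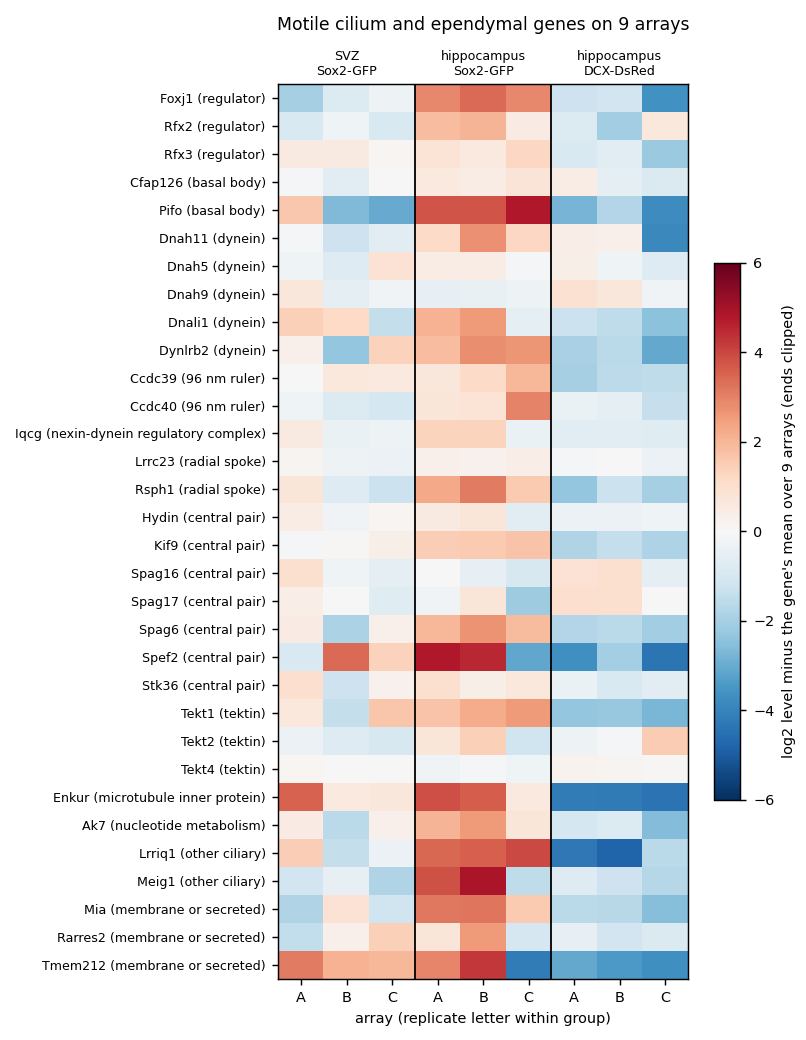
Level of 32 genes (rows, with their role) on each array (columns, grouped as SVZ Sox2-GFP, hippocampus Sox2-GFP and hippocampus DCX-DsRed), as log2 level minus the gene's mean over the 9 arrays, with red above and blue below that mean. Most rows are red on the hippocampus Sox2-GFP arrays and blue on the DCX-DsRed arrays, while Tmem212, Spef2 and Meig1 are blue on hippocampus Sox2-GFP replicate C.

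Foxj1 and Rfx3 were the regulators that rose. Foxj1 read 1.38, 1.90 and 1.39 on hippocampus Sox2-GFP arrays A, B and C, against -2.76, -2.64 and -5.13 on DCX-DsRed arrays A, B and C. The groups did not overlap, and Foxj1 was 33.5-fold higher in Sox2-GFP cells (a log2 difference of 5.07 with SE 0.72, adjusted p = 0.0115), or 19.1-fold without DCX-DsRed C. Fitted with a slide block, its difference was 5.24 (adjusted p = 0.0619). Rfx3 read 1.27, 1.06 and 1.70, against -0.46, -0.16 and -1.74 on the DCX-DsRed arrays, a 4.38-fold difference at the edge of the threshold (adjusted p = 0.0467). That call was lost whichever of the 9 arrays was left out, with an adjusted p of 0.0661 to 0.122. Rfx2, which serves multiciliated cells and sperm, differed by 2.20 (SE 0.71, adjusted p = 0.155), and its groups overlapped.

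Pifo, a protein of the ciliary base also called Pitchfork, rose. It read 0.71, 0.74 and 1.75 on hippocampus Sox2-GFP arrays, against -5.86, -4.82 and -6.80 on DCX-DsRed arrays, where it was well above background on 1 of 3. The measured difference was 6.90 (SE 1.16, adjusted p = 0.0215), and its size rests in part on values at background. It ranged from 4.69 with normexp background correction to 9.55 with a slide block, and leaving out any 1 of these 6 arrays ended the call. Cfap126, or Flattop, which helps to place basal bodies, differed by 0.94 (SE 0.41, adjusted p = 0.296).

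Among the dynein genes, Dynlrb2 rose. Dynlrb2, a light chain of the roadblock family, read 0.72, 1.69 and 1.53 on hippocampus Sox2-GFP arrays, against -3.03, -2.74 and -4.20 on DCX-DsRed arrays. It was 24.9-fold higher (adjusted p = 0.0328), and a call was lost without any 1 of these 6 arrays (18.4-fold to 30.6-fold). Dnali1, a chain of the inner arms, differed by 3.12 (adjusted p = 0.151), with a level of 0.19 on hippocampus Sox2-GFP C, against 2.81 and 3.29 on A and B. Dnah11, a heavy chain of the outer arms, differed by 2.76 (adjusted p = 0.252). The difference was 0.49 for Dnah5 and -0.86 for Dnah9, both outer arm heavy chains, but their other probes differed from these, as given below.

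Ccdc39 and Ccdc40 together form the molecular ruler that sets the spacing of arms and spokes along the doublet. Ccdc39 read -1.29, -0.85 and 0.02 on hippocampus Sox2-GFP arrays, against -3.96, -3.54 and -3.50 on DCX-DsRed arrays. It was 7.78-fold higher (a log2 difference of 2.96 with SE 0.41, adjusted p = 0.0109), and lost its call without DCX-DsRed A (7.02-fold, adjusted p = 0.0532). Ccdc40 differed by 2.29 (adjusted p = 0.103), with all 3 Sox2-GFP arrays above the DCX-DsRed arrays. With slide as a block Ccdc40 differed by 4.28 (adjusted p = 0.00496), where the Sox2-GFP side rests on replicate C, its highest array at 3.04. Iqcg, of the link between doublets that regulates dynein, differed by 1.46 (adjusted p = 0.203), and by 2.03 without hippocampus Sox2-GFP C (adjusted p = 0.0379).

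Rsph1, a protein of the radial spoke head, read 2.09, 2.95 and 1.42 on hippocampus Sox2-GFP arrays, against -2.51, -1.44 and -2.16 on DCX-DsRed arrays. It was 18.2-fold higher (adjusted p = 0.0134), and lost its call without DCX-DsRed A (15.5-fold) or C (17.4-fold). Rsph4a, another spoke head protein, read 1.95, 1.75 and 0.25, against -4.33, -7.77 and -6.66 on DCX-DsRed arrays, with the outlier marks set aside. Fitted that way, it differed by 7.57 (SE 0.85, adjusted p = 0.00489), a size set in part by DCX-DsRed B and C, which read under the lowest signal well above background on those arrays (-5.78 and -5.84). Its marked spot was on SVZ Sox2-GFP C, so the hippocampal values do not hold it. Lrrc23, also of the radial spoke, differed by 0.47 (adjusted p = 0.463), in a narrow range of 3.25 to 4.02 over these 6 arrays.

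Central pair genes were divided. Kif9, a kinesin of the central pair, had the smallest adjusted p of the 31 genes. It read 0.85, 0.93 and 1.05 on hippocampus Sox2-GFP arrays, against -2.45, -2.05 and -2.48 on DCX-DsRed arrays. It was 9.63-fold higher (a log2 difference of 3.27 with SE 0.29, adjusted p = 0.00228), and it passed in 20 of 20 tested alternatives (adjusted p 0.000999 to 0.0177).
Spag6 read 1.12, 1.82 and 1.01, against -2.61, -2.49 and -2.97, and was 16.0-fold higher (adjusted p = 0.0165). Its probe carries an accession that RefSeq now assigns to the near-identical gene Spag6l, and the probe with the Spag6 accession differed by 0.30, so which copy rose is uncertain. Leaving out any 1 of the 6 arrays except hippocampus Sox2-GFP C ended the call (13.5-fold to 17.2-fold).
Spef2 was below background on all 3 DCX-DsRed arrays and read 1.08, 0.80 and -6.84 on hippocampus Sox2-GFP A, B and C. Replicate C fell among the DCX-DsRed values of -7.40, -5.75 and -8.09, and Spef2 was at least 15.0-fold higher as a group mean, with no call (adjusted p = 0.233). Without replicate C it differed by 8.02 (adjusted p = 0.0203), and with the slide block by -0.36.
The kinase Stk36, needed to build the central pair, differed by 1.27 (adjusted p = 0.292) and Hydin by 0.54 (adjusted p = 0.562). Hydin was at -0.17 under the slide block and -0.36 in slide 3 alone. Spag17 differed by -1.16 (adjusted p = 0.465) and Spag16 by -0.91 (adjusted p = 0.463).

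The tektins, filament proteins built into the doublet wall, did not move together. Tekt1 read 2.64, 3.18 and 3.48 on hippocampus Sox2-GFP arrays, against -1.38, -1.35 and -1.79 on DCX-DsRed arrays. It was 24.3-fold higher (adjusted p = 0.0154), and lost its call without hippocampus Sox2-GFP B or any DCX-DsRed array (22.1-fold to 25.7-fold). Tekt2 differed by -0.04 (adjusted p = 0.986), and ranged from -2.72 in slide 3 alone to 0.72 without hippocampus Sox2-GFP C. Tekt4 stayed between 3.41 and 3.92 on these 6 arrays and differed by -0.35 (adjusted p = 0.553).

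Enkur, a protein inside the doublet microtubules, was below background on all 3 DCX-DsRed arrays. It read 0.99, 0.72 and -2.32 on hippocampus Sox2-GFP arrays, and was at least 41.2-fold higher (adjusted p = 0.0135). For a gene below background in a whole group the fold is such a bound: the bright group's mean is set against the lowest signal well above background on each array of the dim group. The measured difference of Enkur was 6.98 and 3.95 to 8.04 over the alternatives. The lowest of these is under the bound above, so that bound holds for the chosen processing alone. Leaving out any DCX-DsRed array ended the call (adjusted p 0.0528 to 0.0575). Lrriq1 also rose. It read 0.39, 0.51 and 0.92 on hippocampus Sox2-GFP arrays, against -7.36, -7.84 and -4.65 on DCX-DsRed arrays, with 1 of the last 3 well above background. The measured difference was 7.23 (SE 0.96, adjusted p = 0.00854), or 6.61 without DCX-DsRed B and 8.21 without C, and its size too rests in part on values at background. With a slide block the adjusted p was 0.0603. Ak7, an adenylate kinase that supplies energy to the axoneme, differed by 3.26 (adjusted p = 0.0642).
Meig1, known from sperm development in mouse, was well above background on hippocampus Sox2-GFP A and B alone, at -2.53 and -1.44. It read -7.83 on replicate C, against -7.12, -7.57 and -8.05 on DCX-DsRed arrays.

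Mia, which encodes a small secreted protein, was the product outside the cilium that rose. It read 2.14, 2.19 and 0.57 on hippocampus Sox2-GFP arrays, against -2.60, -2.69 and -3.55 on DCX-DsRed arrays. It was 23.9-fold higher (adjusted p = 0.0191), and lost its call without any 1 of these 6 arrays except hippocampus Sox2-GFP C (19.4-fold to 27.0-fold).
Tmem212, a membrane protein gene, read -1.25, 0.04 and -8.39 on hippocampus Sox2-GFP A, B and C, and was below background on all DCX-DsRed arrays. Replicate C was the lowest of the 6 values, and the group mean was at least 5.16-fold higher, with no call (adjusted p = 0.284). Without replicate C Tmem212 was called higher (adjusted p = 0.00292); the slide block gave -0.29 and slide 3 alone -0.50.
Rarres2, which encodes the secreted signal chemerin, differed by 1.57 (adjusted p = 0.466); the slide block gave -0.96 and slide 3 alone -0.15.

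**Figure D3:**
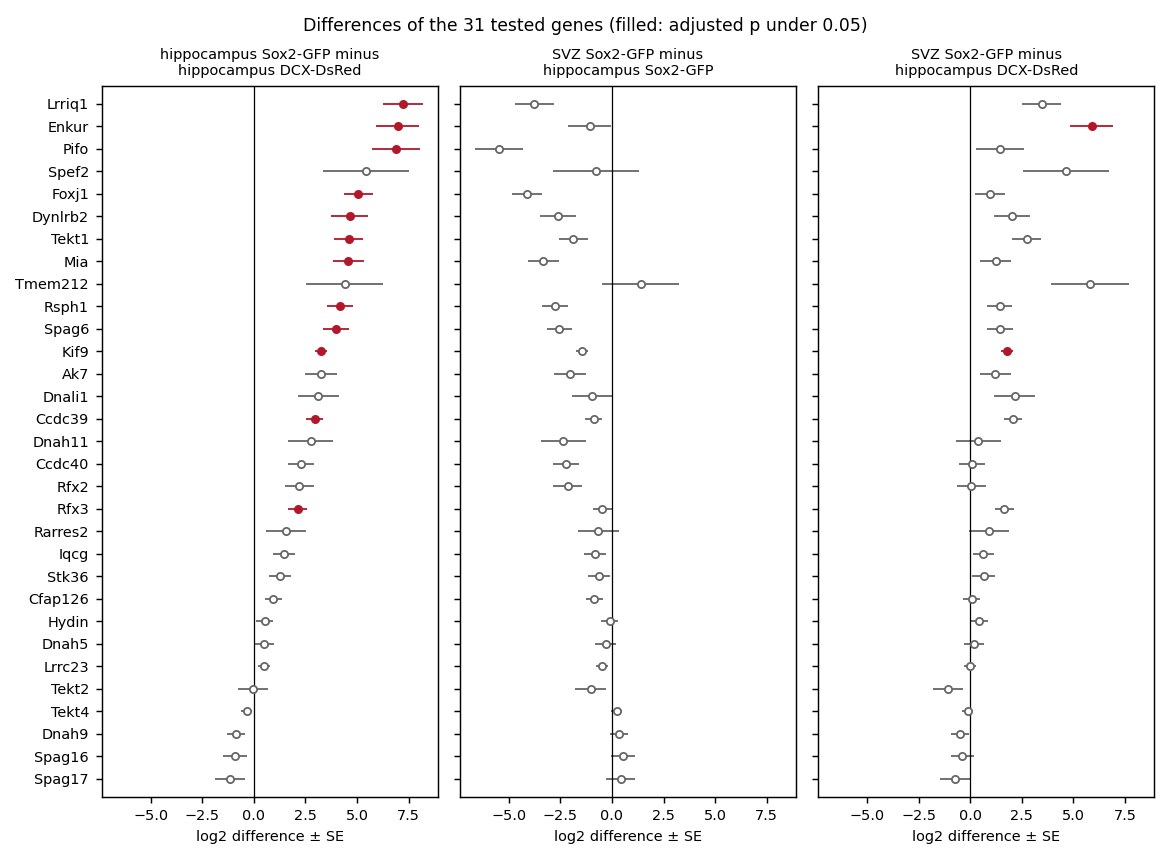
Log2 difference with its standard error (horizontal axis) for the 31 tested genes (rows) in the 3 comparisons named above the panels, with filled points for an adjusted p under 0.05. On the left 12 points are filled, in the middle 0 and on the right 2.

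The count of called genes depended on single arrays and on the slide. It was 3, 5 and 4 without DCX-DsRed A, B and C, and 7 and 6 without hippocampus Sox2-GFP A and B. Foxj1, Lrriq1 and Kif9 were called in each of these fits. With slide as a block 7 genes were called, of which Ccdc39, Enkur, Kif9, Pifo, Rfx3 and Rsph1 were among the 12 and Ccdc40 was not. The median difference was 2.07 in that fit and 1.89 in slide 3 alone.

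The probe with the highest mean level stood for each gene, and for some genes it behaved unlike the others. Every probe past the filter was also tested on its own, a test added after the data were seen. In hippocampus Sox2-GFP cells 1.83% of 36779 probes were higher and 1.34% lower. A probe rose for 14 of the 31 genes, a count of genes that does not compare with shares of probes. Genes with several probes have more chances of a call, and the share of all genes with a called probe was not counted. Dnah9 had 4 probes past the filter. The brightest read 4.41, 4.46 and 4.59 on hippocampus Sox2-GFP arrays, against 5.81, 5.56 and 4.67 on DCX-DsRed arrays, while another read -0.25, 0.93 and 1.04, against -4.34, -4.80 and -4.55. The second differed by 5.13 (SE 0.65, adjusted p = 0.00781), and another by -0.37. The last probe of Dnah9 was below background on all DCX-DsRed arrays and at least 13.5-fold higher, with no call (adjusted p = 0.0748). For Ak7, another probe read 2.53, 3.87 and 1.69 on hippocampus Sox2-GFP arrays and was below background on all 3 DCX-DsRed arrays, which made it at least 307-fold higher (adjusted p = 0.00074). A second probe of Stk36 differed by 4.42 (adjusted p = 0.0158). The other probes of Spag16 differed by 2.74 and 3.54 and those of Dnah5 by 2.02 and 2.88, none of them called. Averaged over all probes, Dnah9 differed by 2.46 and Spag16 by 1.79. All 3 probes of Mia and both probes of Tekt1 were called, while no probe of Rfx3 was (adjusted p = 0.0537 for the brightest). Which transcripts the probes detect was not tested.

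**Figure D4:**
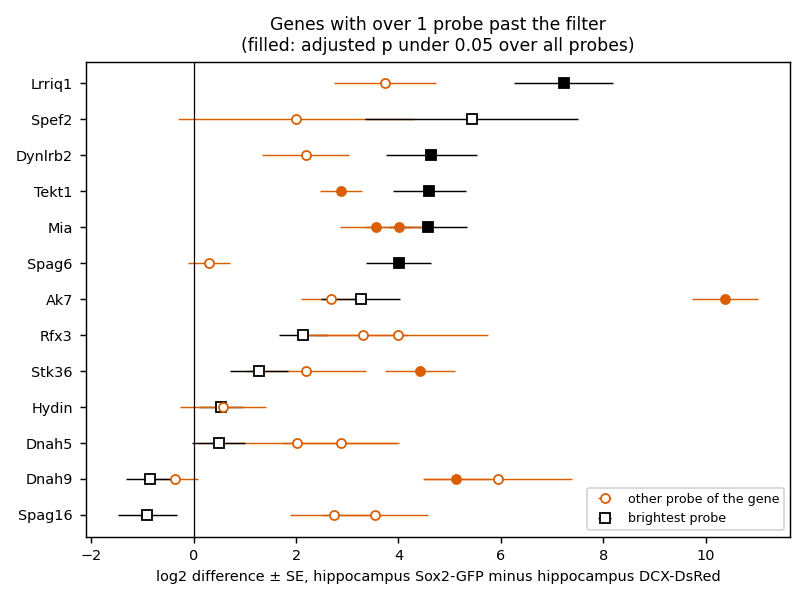
Log2 difference with its standard error between hippocampus Sox2-GFP and hippocampus DCX-DsRed cells (horizontal axis) for each probe of the genes with more than 1 probe past the filter, with the brightest probe as a square, the others as circles, and filled symbols for an adjusted p under 0.05 over all probes. The brightest probes of Dnah9 and Spag16 lie below 0, while other probes of both genes lie above 0.

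Other genes of the motile cilium also rose in hippocampus Sox2-GFP cells. Of 13 regulators of multiciliogenesis, 1 rose, Ccdc78, a protein of the structures that multiply centrioles (4.20-fold, adjusted p = 0.0411). Of 27 genes of dynein arms, docking and assembly 3 rose and 0 fell: the docking gene Ttc25 (42.2-fold, adjusted p = 0.0344), the dynein intermediate chain gene Wdr63 (23.1-fold, adjusted p = 0.00651) and the heavy chain gene Dnah6 (18.2-fold, adjusted p = 0.0476). Of 68 other motile axoneme genes 18 rose and 0 fell, led by Mlf1 (66.6-fold, adjusted p = 0.00428), Cfap70 (60.1-fold, adjusted p = 0.00613) and Cfap65 (54.4-fold, adjusted p = 0.00296). The medians of these lists were 0.43, 1.16 and 1.72. Intraflagellar transport and the BBSome serve both motile and immotile cilia, and 1 of 37 such genes rose, the transport gene Ift74 (7.14-fold, adjusted p = 0.036), with a median of 1.25. Of 18 ependymal genes outside the cilium, 0 passed the test, and the smallest p was that of the filament gene Vim (log2 difference 4.16, adjusted p = 0.0641). Sntn and Fam216b, of that list, were below background on all 3 DCX-DsRed arrays. Sntn read 0.90, 1.89 and -6.77 on hippocampus Sox2-GFP A, B and C, and Fam216b -3.14, -1.79 and -6.91.

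Levels of other cell types moved with these differences. Of 23 choroid plexus genes 16 rose and 0 fell in hippocampus Sox2-GFP cells, with a median of 3.91. Their summed linear level was 139 to 395 on hippocampus Sox2-GFP arrays and 31.1 to 39.2 on DCX-DsRed arrays, where Aqp1 and Lmx1a were not well above background. Myelin genes ran the other way, with 11 of 18 lower and a median of -4.65. Astrocyte genes summed to 70.7 to 205 on hippocampus Sox2-GFP arrays and 57.2 to 81.2 on DCX-DsRed arrays, with 1 of 20 called. The part of these cells in the cilium gene differences was not tested.

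**Figure D5:**
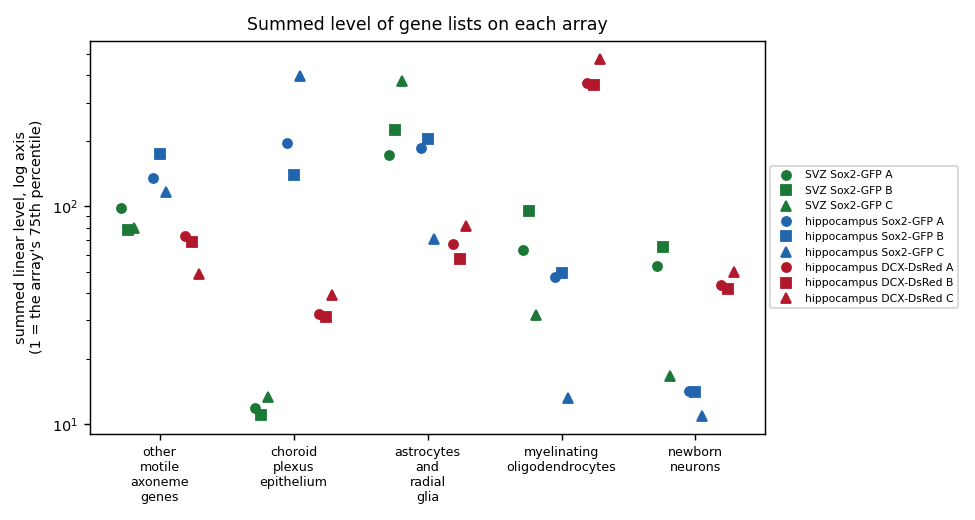
Summed linear level (vertical log axis, in units of each array's 75th percentile) of 5 gene lists on each of the 9 arrays, with colour for the group and symbol shape for the replicate. Choroid plexus genes stand at 11.1 to 13.3 in SVZ Sox2-GFP, 139 to 395 in hippocampus Sox2-GFP and 31.1 to 39.2 in hippocampus DCX-DsRed cells. Most of the DCX-DsRed level came from Enpp2 alone.

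Hippocampus Sox2-GFP replicate C was low for some of these genes and not for others. Of the genes called in the hippocampal comparison, all but Mia and Enkur read on it within 1 log2 unit of A or B, or above both. Uncalled genes such as Ccdc40 and Cfap126 did so too. Against the mean of A and B, 7 of 31 genes were lower by more than 2 log2 units, where 16.0% of all genes were. They were Tmem212, Rarres2, Spag17, Tekt2, Dnali1, Enkur and Spef2. Ccdc40 alone was higher by more than 2, where 4.44% of all genes were.

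Between regions, the cilium genes tended to lower levels in SVZ than in hippocampus Sox2-GFP cells, but none of the 31 passed the test. With limma 0 were called in either direction, where 0.0442% of all genes were higher and 0.358% lower. At an unadjusted p under 0.05, 12 were lower and 0 higher, where 6.47% of all genes were lower and 4.32% higher. The 3 SVZ arrays lay below the 3 hippocampus Sox2-GFP arrays for 17 genes, where 8.06% of all genes did so, and above them for 1, Tekt4, where 8.86% did. The median difference was -0.96, against 0.08 over all genes. This comparison and the one before share the hippocampus Sox2-GFP arrays, so their differences are not independent.

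Foxj1 read -3.49, -2.34 and -1.83 on SVZ arrays A, B and C, all below the hippocampus Sox2-GFP values given above. The difference was -4.11 (SE 0.72, adjusted p = 0.0679). Foxj1 was called lower with normexp background correction (adjusted p = 0.0167), with quantile normalization (0.0375) and without hippocampus DCX-DsRed C (0.0308). Pifo read -1.43, -5.69 and -6.07 on SVZ arrays, a difference of -5.46 (SE 1.16, adjusted p = 0.129), and was called lower with slide as a block (-7.13, adjusted p = 0.0146) and without SVZ A (-6.95, adjusted p = 0.021).
Over 20 tested alternatives Pifo was called lower in 3, the 2 above among them. Lrriq1 read -1.56, -4.50 and -3.40 on SVZ arrays and differed by -3.76 (adjusted p = 0.203). Lrriq1 was called lower in 1 of 20 tested alternatives (adjusted p = 0.0386). Mia differed by -3.34 (adjusted p = 0.148), Rsph1 by -2.76 (adjusted p = 0.148) and Kif9 by -1.46 (adjusted p = 0.102). Kif9 was the tightest of them, at -0.72, -0.56 and -0.28 in SVZ cells. Dynlrb2 differed by -2.63, Spag6 by -2.54, Ccdc40 by -2.21, Rfx2 by -2.15, Ak7 by -2.04 and Tekt1 by -1.88, with adjusted p-values of 0.192 to 0.400. With a slide block Ccdc40 was called lower (-3.93, adjusted p = 0.00525) and Tmem212 higher (6.34, adjusted p = 0.00631, against 1.40 without the block), and the hippocampus Sox2-GFP side then rests on replicate C. With each probe tested on its own, where 0.411% of probes were lower and 0.0381% higher, the dimmer probe of Tekt1 fell (-2.70, adjusted p = 0.0392). Meig1 was below background on all SVZ arrays.

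Of the other cilium genes, 2 of 68 axoneme genes fell in SVZ cells and 0 rose. They were Mlf1 (51.7-fold, adjusted p = 0.0148) and Iqub, a gene of the radial spoke (13.6-fold, adjusted p = 0.0108). Of 37 transport genes, Ttc30b fell (21.8-fold, adjusted p = 0.0277). Mlf1 was well above background on 2 of 3 SVZ arrays and Ttc30b on 1, so both folds rest in part on values at background. No gene among 13 regulators, 27 dynein arm genes or 18 ependymal genes outside the cilium passed the test. Choroid plexus genes again moved with them: 11 of 23 fell in SVZ cells and 0 rose. Their sums were 11.1 to 13.3 on SVZ arrays and 139 to 395 on hippocampus Sox2-GFP arrays. Other lists tended the other way, with medians of 1.62 for newborn neuron genes, 1.24 for myelin genes and 1.17 for astrocyte genes. In each of these lists 0 genes were called. The part of choroid plexus or other cells in the regional differences was not tested.

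Against hippocampus DCX-DsRed cells, SVZ Sox2-GFP cells had higher levels of 2 of the 31 genes, where 0.542% of all genes were higher, and lower levels of 0, where 0.98% were lower. At an unadjusted p under 0.05, 9 were higher and 0 lower, where 6.58% and 7.12% of all genes were. Enkur read 0.65, -2.32 and -2.20 on SVZ arrays and was at least 19.4-fold higher (adjusted p = 0.0379). Kif9 was 3.49-fold higher (a log2 difference of 1.80 with SE 0.29, adjusted p = 0.0282). Both calls were lost without any 1 of the 9 arrays except hippocampus Sox2-GFP C. This comparison shares its arrays with the 2 before. The fold of Kif9 without an array was 3.21 to 3.84. The measured difference of Enkur was 5.89, or 3.07 with normexp background correction (adjusted p = 0.146), which is under the bound above, and up to 7.77 in slide 1 alone.

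The 3 SVZ arrays lay above the DCX-DsRed arrays for 10 of 31 genes, where 10.7% of all genes did so, and below them for 1, Tekt2, where 10.4% of all genes did. Tmem212 read -1.08, -2.12 and -2.18 on SVZ arrays and was at least 13.7-fold higher, with no call (adjusted p = 0.205). Spef2 read -4.65, -0.34 and -2.32 and was at least 8.70-fold higher, with no call (adjusted p = 0.379). Lrriq1 differed by 3.46, Tekt1 by 2.73, Ccdc39 by 2.07, Rfx3 by 1.66, Spag6 by 1.46 and Rsph1 by 1.42, with adjusted p-values of 0.0565 to 0.362. With a slide block Ccdc39 (1.92, adjusted p = 0.0299) and Tmem212 (6.06, adjusted p = 0.00714) were called higher, as they were without hippocampus Sox2-GFP C (adjusted p = 0.0214 and 0.00333). Foxj1 differed by 0.96 (adjusted p = 0.646) with overlapping groups, and by -0.79 within slide 1. Rsph4a, with its marked spot kept, read -0.35, -0.99 and -0.48 on SVZ arrays and differed by 5.65 (SE 0.85, adjusted p = 0.0213). With each probe tested on its own, where 0.489% of probes were higher and 0.892% lower, the Ak7 probe that was below background in DCX-DsRed cells was also called (at least 127-fold higher, adjusted p = 0.00241). Among the other cilium genes Wdr63 (8.74-fold, adjusted p = 0.0379), Cfap65 (21.9-fold, adjusted p = 0.0127) and Cfap69 (3.79-fold, adjusted p = 0.0397) rose. In this comparison 0 of 23 choroid plexus genes rose and 1, Enpp2, fell. Of 18 myelin genes 6 fell, with a median of -3.21. Myelin genes summed to 31.6 to 95.6 on SVZ arrays and 363 to 477 on DCX-DsRed arrays. Astrocyte genes summed to 172 to 376 on SVZ arrays and 57.2 to 81.2 on DCX-DsRed arrays. The part of these cells in the comparison was not tested.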

How the data were processed

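Deposited scanner files gave the intensity of each spot on 9 Agilent 1-colour arrays; per the file headers, the authors' software had subtracted local background, with no normalization between arrays. The submitters' processing notes name limma. Deposited flags of 0 and 1, which are not a measured quantity, marked outlier spots and spots well above background. Outlier spots were left out, and probes with a missing array dropped. The log2 processed intensity was set relative to the array's 75th percentile, spots of a probe were averaged, a filter required signal well above background on at least 3 arrays, and a gene was represented by its brightest probe. One limma 3.58.1 fit (R 4.3.3) over all 9 arrays compared the 3 groups, with 6 residual degrees of freedom and Benjamini-Hochberg adjustment over 24889 genes. The procedure was tested on simulated data. Array number limits the precision. Genes were named by accession or symbol through RefSeq. The 34 genes, the other lists and the tests were chosen with earlier results of these data known. Array values are given for genes that differed most within their role and for genes below background in a group; of other cilium lists, up to 3 called genes are named per comparison, or the one with the smallest p. In total 22 alternatives were tried. Same-letter replicates did not deviate together, with correlations of -0.04 to 0.12, so they were not treated as pairs.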

Additional observations from a re-analysis of the deposited data

How the results depend on the processing

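For hippocampus Sox2-GFP against DCX-DsRed cells, 12 called genes became 7 with slide as a block and 3 to 12 with 1 array left out, and the 22 called other motile cilium genes became 14 with slide as a block, 13 with a replicate block and 9 to 26 with 1 array left out. The median difference of 2.76 became 2.19 with normexp, 2.29 with probes above background on 6 arrays, 2.07 under the slide block, 1.89 in slide 3 alone and 2.52 to 3.02 with 1 array left out. Of 649 single-gene values 13 changed sign, in 8 genes: Rfx2 was -0.15 within slide 3; under the slide block and in slide 3 alone, Tmem212 was -0.29 and -0.50, Rarres2 -0.96 and -0.15, and Hydin -0.17 and -0.36; Spef2 was -0.36 with slide as a block. With the mean of all probes Spag16 was 1.79 and Dnah9 2.46. Tekt2 was 0.13 with quantile normalization, 0.72 without hippocampus Sox2-GFP C and 0.54 without DCX-DsRed C, in a range of -0.60 to 0.72 with 1 array left out, and -1.97 under the slide block and -2.72 in slide 3 alone.

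For SVZ against hippocampus Sox2-GFP cells, 0 called genes became 3 with normexp, 1 with quantile normalization, 3 with slide as a block, 1 with every probe tested on its own and 0 to 1 with 1 array left out. The 2 called other motile genes became 5 with normexp, 5 with the mean of probes, 0 with only the groups compared, 9 with slide as a block, 1 with a replicate block and 1 to 4 with 1 array left out. The median of -0.96 became -1.47 with the mean of probes and -1.54 to -0.77 with 1 array left out. For SVZ Sox2-GFP against hippocampus DCX-DsRed cells, 2 called genes became 4 with slide as a block, 0 with a replicate block and 0 to 4 with 1 array left out. The 3 called other motile genes became 6 with slide as a block, 1 with a replicate block and 0 to 6, and the median of 0.96 became 0.74 to 1.37. Foxj1 was -0.79 within slide 1.

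In these last comparisons single-gene settings were followed for 12 and 11 genes, a choice made after all values were seen. Over all 31 genes, 32 of 649 values (12 genes) and 35 of 680 values (13 genes) changed sign. Testing each probe was also chosen after seeing the data. The replicate block left 9 of the 12 calls of the hippocampal comparison. A left-out array leaves fewer samples; the cause of the other changes was not tested. Genes near background have only bounds, and within-slide values rest on few arrays.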
